A study of Mus musculus with 16 samples.

Results

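Vascular smooth muscle cells (VSMCs) of the mouse thoracic aorta that held transcripts of Dlx6, Tfap2b and 4 further genes were described. A VSMC was a kept cell with at least 5 unique molecular identifiers (UMIs, each standing for 1 captured RNA molecule) of Myh11, which encodes smooth muscle myosin heavy chain, and with more UMIs of Myh11 than of Dcn, which encodes the fibroblast proteoglycan decorin. A member was a VSMC with UMIs of at least 2 of 6 selecting genes: Dlx6, Tfap2b, Grin2b, Nrn1, Pianp and Slc22a3. This rule found 375 members among 8950 VSMCs, 4.19% of them, and among 50858 kept cells in all. The other 8575 VSMCs of the same libraries were the comparison. The 6 genes had been picked with results of these data in view, so what follows on other genes describes a group that was defined in the same cells.

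Dlx6 and its neighbour Dlx5 encode homeobox transcription factors that pattern the mesenchyme of the pharyngeal arches, and Tfap2b encodes an AP-2 transcription factor of neural crest derivatives, including the ductus arteriosus. The smooth muscle of the ascending aorta and arch has more than 1 embryonic source, the cardiac neural crest and the second heart field among them, and its transcription factors differ along the vessel. Grin2b encodes a subunit of the NMDA glutamate receptor, Nrn1 the membrane-anchored neurite growth factor neuritin, Pianp a membrane protein best known from neurons, and Slc22a3 an organic cation transporter.

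The cells came from 16 mice of strain 129S6/SvEv, 1 library per mouse, in a study of Smad3, the TGF-beta signal transducer, in smooth muscle. All mice carried Myh11-CreER on the Y chromosome and were therefore male, and all received tamoxifen (2 mg a day on 5 days in a row from 6 weeks of age). The Smad3+/+ mice had wild type Smad3, and those labelled Smad3SmKO had floxed Smad3 alleles that this Cre is meant to delete in Myh11-expressing cells. The labels gave 2 Smad3+/+ and 2 Smad3SmKO libraries at 10 weeks after the deletion and 5 Smad3+/+ and 7 Smad3SmKO libraries at 18 weeks. Some mice also carried a conditional EGFP-L10a tracer, labelled Myh11-GFP. Pieces of thoracic aorta, from the root to the branch of the left subclavian artery, were digested for 30 or 60 min, sorted as living nucleated cells and sequenced as droplet libraries from the 3′ end of the transcripts.

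The libraries held 12539539 to 52843031 UMIs each. Of the kept barcodes, 315 occurred in more than 1 library, 0.623% of the distinct ones, with at most 11 in any pair of libraries. Smad3 in VSMCs was not lower in the libraries labelled Smad3SmKO, at 4.04 to 17.3 counts per 1e+06 UMIs (CPM) against 2.83 to 9.89 CPM in Smad3+/+ at 18 weeks, and 5.19 to 8.08 against 4.69 to 5.4 CPM at 10 weeks. The counts do not separate the exons of a gene, so they do not check the deletion, and these libraries are called by their label. GFP went against the tracer label in 4 libraries. The VSMCs of Smad3SmKO replicates 1 and 2 at 10 weeks, labelled without tracer, had 18.7 and 21.4 CPM of GFP, and those of Smad3+/+ replicates 4 and 5 at 18 weeks, labelled with it, held no GFP UMI. The counts of genes at 18 weeks and between classes, and the 18-week share by genotype, are also given without these 4 libraries where this could be fitted. The 10-week tests, the digestion test and most single genes are given with them only.

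Most members stood at the edge of the rule. Of all VSMCs, 5481 held none of the 6 genes and 3094 held 1, while 248 held 2, 89 held 3, 31 held 4 and 7 held 5. No VSMC held all 6. Slc22a3 was 1 of the 2 genes in 191 of the 248 members with exactly 2, and it was detected in 33.8% of the other VSMCs, so it carried less of the distinction than the rest. Dlx6 or Tfap2b was detected in 259 members (69.1%), both of them in 58, and neither in 116. The group therefore does not consist of cells with Dlx6 and Tfap2b alone, and it is called by its rule here.

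The 6 genes were found in these shares of members by the way the members were chosen. Dlx6 was detected in 47.2% of members and 0.373% of other VSMCs, Tfap2b in 37.3% and 0.233%, and Grin2b in 24.8% and 0.245%. Pianp was detected in 42.7% and 0.525%, Nrn1 in 14.1% and 0.898%, and Slc22a3 in 79.7% and 33.8%. Over the 11 libraries with at least 10 members, Dlx6 ranged from 30.8% to 63.6% of members, Tfap2b from 16% to 72.2%, Grin2b from 5.77% to 57.1% and Nrn1 from 4% to 38.9%. A member with Dlx6 held 1.58 UMIs of it on average and at most 6, so a cell without a UMI of such a gene could not be called negative at this depth.

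Dlx6, Tfap2b, Pianp and Nrn1 were not particular to smooth muscle. Grin2b, found in 1.27% of VSMCs, and Slc22a3 were rare outside it. Among 36066 fibroblasts (cells with at least 5 Dcn UMIs and more Dcn than Myh11 UMIs, median 8459 UMIs against 7954 in VSMCs), Dlx6 was detected in 1.08%, Tfap2b in 0.818%, Pianp in 1.76%, Nrn1 in 2.27%, Slc22a3 in 0.46% and Grin2b in 0.0166%. At least 2 of the 6 genes were found in 0.771% of the fibroblasts, in 1.81% of 1102 endothelial cells, and in 0.0352% of 2841 leukocytes, whose median depth was 5716 UMIs and which should lack them. Of 105 Schwann cells, 70.5% held Nrn1 and 5.71% held 2 or more of the 6. Slc22a3 alone was in 35.7% of VSMCs, so the shares with 2 or more cannot be compared between VSMCs and these types.

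**Figure D1:**
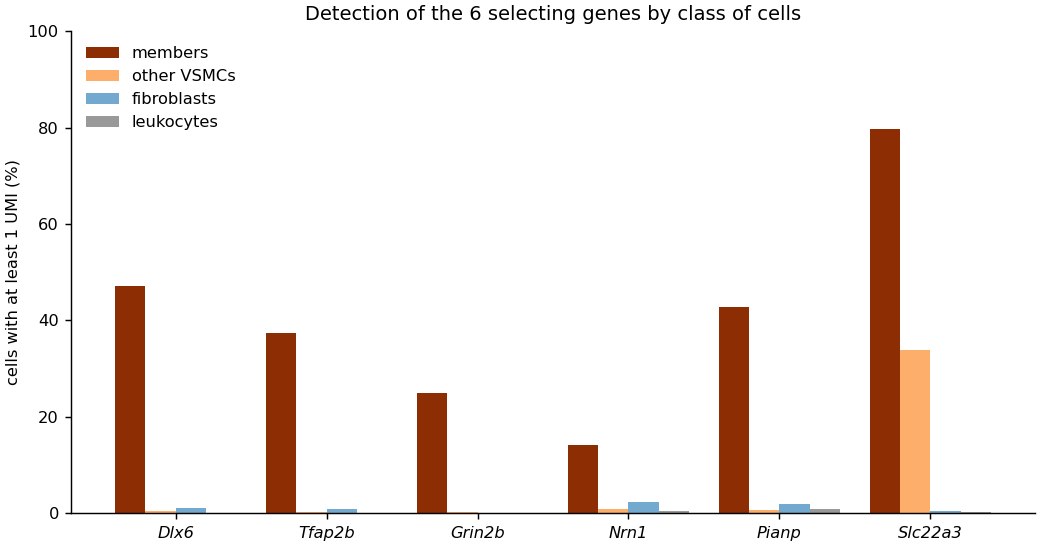
Percent of cells (vertical axis) with at least 1 UMI of each of the 6 genes that chose the members, in members, other VSMCs, fibroblasts and leukocytes, over all 16 libraries. Slc22a3 alone was common in other VSMCs (33.8%), and the shares in members follow from the rule and were not tested.

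Within VSMCs the 6 genes were not all found in the same cells. Dlx6 and Grin2b went together most, with 55 VSMCs holding both (phi coefficient 0.35 over 8950 VSMCs), so that 26.3% of the VSMCs with Dlx6 had Grin2b against 0.675% of those without. Dlx6 and Tfap2b were found together in 58 VSMCs (phi 0.30), Tfap2b and Pianp in 56 (phi 0.29), and Dlx6 and Pianp in 56 (phi 0.25). Nrn1 went with Tfap2b in 19 VSMCs (phi 0.12) but with Dlx6 in only 5 (phi 0.01), and Slc22a3 had a phi of at most 0.08 with any of the others. These coefficients are descriptions over cells that share libraries and depth, and in counts this sparse a weak one is no finding.

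On mouse chromosome 6, Dlx6 (chr6:6863334-6868568, plus strand, GRCm38) and Dlx5 (chr6:6877805-6882085, minus strand) lie side by side, and the antisense transcript Dlx6os1 (chr6:6820189-6871592, minus strand) covers all 5235 bases of Dlx6. Together they span 61897 bases. Whether the counting used strand is not given in the sources used here, so UMIs of Dlx6 and Dlx6os1 may not be fully separable. Grin2b (chr6:135713233-136173511, minus strand) and Pianp (chr6:124996694-125003096, plus strand) lie far away on the same chromosome, and Tfap2b (chr1:19208914-19238576, plus strand), Nrn1 (chr13:36725361-36735131, minus strand) and Slc22a3 (chr17:12418960-12507704, minus strand) on others.

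The cells just inside and just outside the limit of 2 genes were set side by side, with CPM of UMIs summed over all cells of a kind and with no test. Dlx5 was at 33.2 CPM in the 248 members with 2 genes and 60.2 CPM in the 127 with 3 or more, against 3.42 CPM in VSMCs with 1 gene and 0.954 CPM in those with none. The regulator of G-protein signalling Rgs5 was at 2352 and 4949 CPM inside and at 319 and 293 CPM outside, in the same order. Cardiac troponin T, Tnnt2, went the other way, from 230 CPM with none and 68.3 CPM with 1 to 3.82 and 0.734 CPM.

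Which gene was the 1 outside mattered. The 2899 VSMCs with Slc22a3 alone had 2.45 CPM of Dlx5, 11.2 CPM of Prrx2 and 226 CPM of Rgs5, close to the VSMCs with none (0.954, 13.3 and 293 CPM). The 195 VSMCs with 1 of the other 5 genes had 18 CPM of Dlx5, 91.2 CPM of Prrx2 and 1724 CPM of Rgs5, nearer to the 191 members whose 2 genes included Slc22a3 (29, 87 and 2157 CPM). They differed from those members in Tnnt2, at 104 against 4.83 CPM, and in the elastin gene Eln, at 8680 against 1721 CPM. The 184 members with at least 2 of the 5 genes other than Slc22a3 had 57 CPM of Dlx5, 250 CPM of Prrx2 and 4413 CPM of Rgs5. The other VSMCs thus include cells with part of this profile.

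Summed over libraries and with no test, members that held different genes also differed among themselves. The 177 members with Dlx6 had 62.1 CPM of Dlx5, 38.5 CPM of Msx2 and 875 CPM of Sfrp2, a secreted modulator of Wnt signals. The 48 members with Nrn1 but no Dlx6 had 9.87, 3.95 and 120 CPM of these, and 5629 CPM of Rgs5, 126 CPM of the potassium channel gene Kcnj8, 67.1 CPM of Hoxa4 and 22253 CPM of the matrix Gla protein gene Mgp. In members with Dlx6 those stood at 2640, 39.5, 11.8 and 9218 CPM. The interferon-induced genes Ifit1 and Isg15 were at 109 and 241 CPM in the members with Nrn1 and no Dlx6 and at 30.8 and 70.3 CPM in those with Dlx6. These 48 cells came from 11 libraries, with at most 8 from any of them. Smad3+/+ replicate 1 at 10 weeks gave 7 of them but 61 of the 177 members with Dlx6. The sums were not compared within libraries, so they do not separate the gene held from the library.

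**Figure D2:**
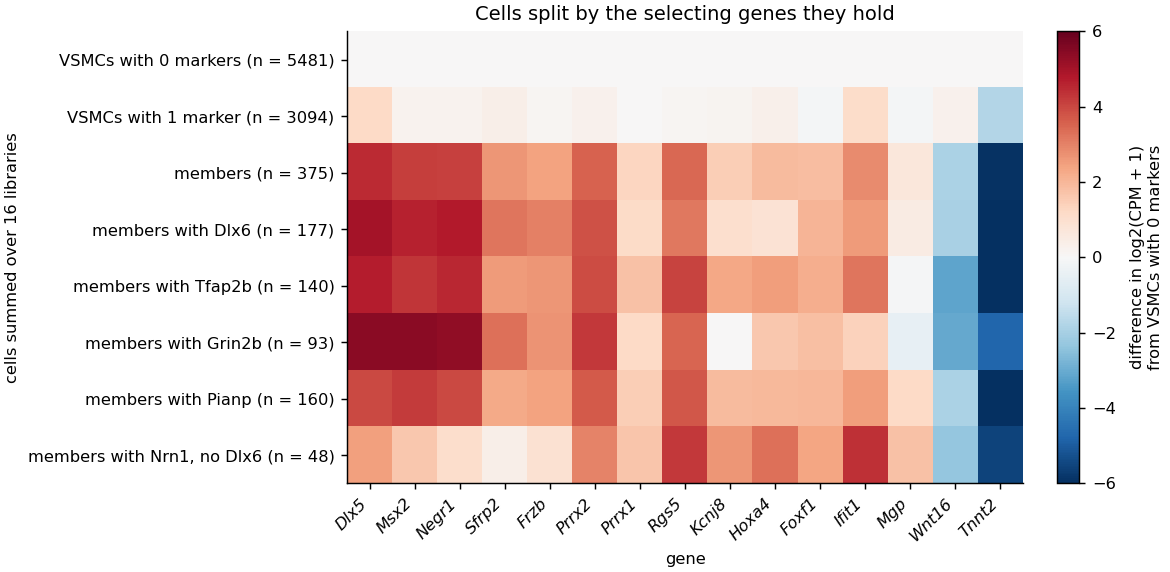
Difference in log2(CPM + 1) from VSMCs with none of the 6 genes (colour) for 15 genes (columns) in cells grouped by the selecting genes they held (rows, with the number of cells), summed over 16 libraries. Members with Nrn1 and no Dlx6 are lowest in Dlx5, Msx2 and Negr1 among the rows of members and highest in Rgs5, Hoxa4 and Ifit1.

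Outside the 6 genes, members differed from other VSMCs of the same mice in transcription factors, cell-surface and guidance molecules, matrix genes and the contractile apparatus. UMIs were summed per library and class in the 11 libraries with at least 10 members, and the classes were compared within libraries (edgeR quasi-likelihood test, library as a block, Benjamini-Hochberg adjusted p under 0.05). Of 11517 genes tested, 1259 differed (10.9%), of which 385 were higher in members (3.34% of the genes tested) and 874 lower (7.59%). The median log2 fold change of all genes was -0.06. With the size factors of DESeq2 the split was 454 higher and 498 lower, so the excess of lower genes depended on the scaling. Of the 11517 genes, 15 had no overlap between the classes over the 11 libraries (0.13%). Members had fewer UMIs per cell than other VSMCs in 9 of the 11 libraries (library medians 4723 to 18265 against 5826 to 22720). Summed counts do not separate fewer cells with a transcript from fewer transcripts per cell.

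Dlx5, the neighbour of Dlx6, was among the genes with the largest increase. Dlx5 ranged over the libraries from 4.43 to 66 CPM in members (median 40.7) and from 0.7 to 5.72 CPM in other VSMCs (median 2.01), higher in members in 11 of 11. Only the lowest members' value fell within the range of the others. The log2 fold change was 4.12 ± 0.27 (SE, edgeR adjusted p = 2.33e-28). A UMI of Dlx5 was found in 30.9% of members, 1.59% of other VSMCs, 2.51% of fibroblasts and no leukocyte.

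Msx2, a homeobox gene that responds to BMP signals in craniofacial mesenchyme, ranged from 0 to 64.7 CPM in members (median 24) and from 0.237 to 7.76 CPM in others (median 0.984). It was higher in 10 of 11 libraries, and Smad3+/+ replicate 4 at 18 weeks, with 11 members, had no Msx2 UMI in them. The log2 fold change was 4.67 ± 0.37 (edgeR adjusted p = 3.71e-21). Prrx2, a paired-related homeobox gene of limb and arch mesenchyme, did not overlap between the classes, at 75.4 to 362 CPM in members (median 154) and 6.56 to 59.5 CPM in others (median 17.4), with a log2 fold change of 3.11 ± 0.14 (edgeR adjusted p = 1.21e-17). Its relative Prrx1 was also higher, with means of 159 and 93.7 CPM and a log2 fold change of 0.88 (edgeR adjusted p = 2.54e-11).

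Of the 28 tested genes on a list of 48 homeobox, AP-2 and other regional transcription factors, 7 were higher and 6 lower, with a median log2 fold change of -0.11. Besides Dlx5, Msx2, Prrx1 and Prrx2, the higher genes included the antisense transcript Dlx6os1 (log2 fold change 5.36) and the forkhead gene Foxf1 (1.99). The 6 lower genes included factors of the heart fields and the heart, namely Gata4 (-3.33), Nkx2-5 (-2.77), Tbx20 (-2.42) and Hand2 (-1.60), and Meis2 (-0.96) and Twist1 (-0.56). Tbx20 ranged from 0 to 21.9 CPM in members (median 1.43) and from 10.5 to 42.2 CPM in others (median 23.4), lower in 11 of 11 libraries (edgeR adjusted p = 3.47e-06). Nkx2-5 was near the detection limit in both classes, at means of 0.363 and 2.37 CPM.

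Hox genes, which mark position along the body axis, were higher where they differed. Of 8 tested, 4 were higher and none lower (median log2 fold change 0.75), and 14 more of the list were too sparse to test. Hoxa4 ranged from 4 to 113 CPM in members (median 19.4) and from 5.25 to 18.4 CPM in others (median 7.76), higher in 10 of 11 libraries, with a log2 fold change of 1.71 ± 0.29 (edgeR adjusted p = 4.26e-05). The 113 CPM of Hoxa4 was in Smad3+/+ replicate 2 at 18 weeks. Hoxa4 was also unequal among members, much lower in the sums above in members with Dlx6 than in those with Nrn1 and no Dlx6. Hoxa5 (1.40), Hoxb4 (1.06) and Hoxb2 (0.49) followed, and Hoxb2 was higher in only 6 of 11 libraries.

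**Figure D3:**
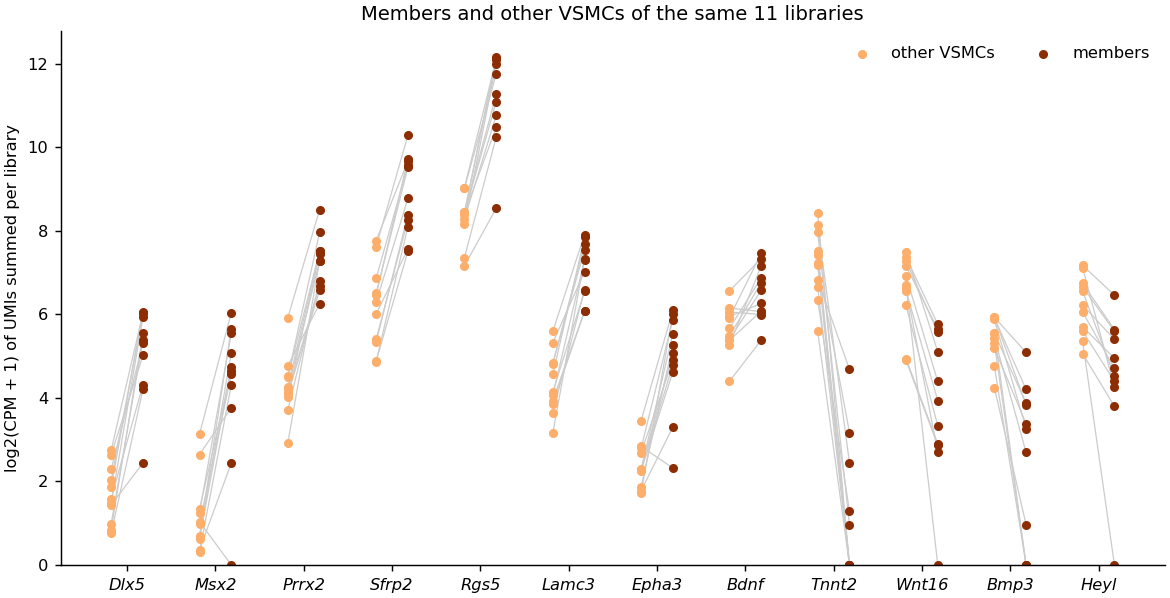
log2(CPM + 1) of UMIs summed per library (vertical axis) for 12 genes in other VSMCs (light points) and members (dark points), with lines joining the classes of 1 library, for the 11 libraries with at least 10 members. Prrx2, Lamc3 and Tnnt2 do not overlap between the classes, and Msx2, Wnt16, Bmp3 and Heyl each reach 0 in at least 1 library of members.

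Several genes known from neurons or from axon guidance were higher. Negr1 and Epha3 were also found in fibroblasts, with a UMI of Negr1 in 15.7% of members and 10.9% of fibroblasts, and of Epha3 in 24.8% and 14.5%. Negr1, which encodes an adhesion molecule of the IgLON family, had a log2 fold change of 5.07 ± 0.39 (edgeR adjusted p = 1.82e-24). It ranged from 0 to 49.5 CPM in members (median 13.3) and from 0 to 1.38 CPM in others (median 0.4), and Smad3SmKO replicate 1 at 18 weeks had no UMI in either class. Epha3, an ephrin receptor kinase, ranged from 4 to 67.2 CPM in members (median 32.8) and from 2.3 to 9.95 CPM in others (median 3.87), with a log2 fold change of 2.82 ± 0.24 (edgeR adjusted p = 3.29e-20).

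Of the 20 tested genes on a list of 44 glutamate receptor, synaptic and axonal genes, 7 were higher and 1 lower, with a median log2 fold change of 0.23. The glutamate receptor subunit gene Gria3 (2.51), the guidance ligand Slit2 (2.15), the semaphorin and VEGF coreceptor Nrp1 (1.52), the semaphorins Sema3c (1.42) and Sema3d (0.79) and the adhesion molecule Ncam1 (0.59) were higher beside Epha3, and the scaffold Dlg2 (-1.33) was lower. Of the list, 24 genes, most glutamate receptors and the neurexins among them, were too sparse to test. Outside the list, Prss12, which encodes the protease neurotrypsin, was higher, at 0 to 77.2 CPM in members (median 25.8) and 0 to 4.6 CPM in others (log2 fold change 4.04). These genes were not particular to members. Gria3 was detected in 16.3% of members and 10.8% of fibroblasts, Prss12 in 16.3% and 15.1%, Slit2 in 6.4% and 14.7%, and Nrp1 in 36.3% and 60.8%. Defining neuronal and glial genes were at or near 0 in members, with no UMI of Sox10, Dbh or Snap25, 1 of Rbfox3 and 2 of Th over all 375.

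Neurotrophin genes moved in both directions. Bdnf, which encodes brain-derived neurotrophic factor, ranged from 40.7 to 175 CPM in members (median 94.4) and from 20 to 93.2 CPM in others (median 49.7), higher in 9 of 11 libraries, with a log2 fold change of 0.82 ± 0.18 (edgeR adjusted p = 0.00849). The neurotrophin receptor gene Ntrk2 (-2.05) and the sortilin gene Sort1 (-0.82) were lower, and the other 4 tested of the list did not pass. Of 7 tested genes for cation transport and monoamine handling, none was higher and 2 were lower, among them Maob (-0.94), which encodes a monoamine oxidase. With libraries digested for 30 min alone, Maob was at 0.37 and did not pass.

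Secreted and matrix genes were mixed. Sfrp2 reached 1248 CPM in members (median 437, mean 556 ± 344, SD, n = 11 libraries) and ranged from 28.2 to 216 CPM in others (median 77.1), higher in members in 11 of 11 libraries. Its log2 fold change was 2.68 ± 0.15 (edgeR adjusted p = 1.61e-07). The Wnt ligand gene Wnt16 was lower, at 0 to 53.2 CPM in members (median 14.3) and 28.8 to 179 CPM in others (median 103), lower in 11 of 11, with a log2 fold change of -2.22 ± 0.14 (edgeR adjusted p = 2.58e-27). Bmp3, a divergent BMP ligand, was lower as well, from 0 to 33 CPM in members (median 8.58) and from 18 to 60 CPM in others (median 45.9), with a log2 fold change of -2.48 ± 0.23 (edgeR adjusted p = 3.59e-18).

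Of 36 tested elastic fibre and matrix genes, 8 were higher and 9 lower, and the median log2 fold change was -0.05. With the size factors of DESeq2, 10 were higher and 5 lower. The proteoglycan gene Vcan rose from a mean of 50.8 ± 17.1 CPM in others to 136 ± 59.6 CPM in members (SD, n = 11 libraries, log2 fold change 1.36), and the microfibril genes Mfap5 (1.19), Mfap2 (1.16) and Ltbp2 (1.16) were higher with Fbln1 (1.02), Col15a1 (0.94), Fbln5 (0.38) and Ltbp1 (0.32). The fibulin gene Fbln2 fell from 28.1 to 8.5 CPM on average (-1.82), and Col8a1 (-1.34), Spp1 (-0.71), Emilin1 (-0.66), Mfap4 (-0.64), Col3a1 (-0.49), Col18a1 (-0.44), Col4a2 (-0.28) and Col4a1 (-0.21) were lower. Eln, the elastin gene, was at means of 2005 ± 1121 and 1499 ± 1056 CPM and did not pass (log2 fold change 0.45, edgeR adjusted p = 0.232).

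Further secreted proteins were among the genes with the largest changes. The laminin chain gene Lamc3 did not overlap between the classes, at 66.1 to 239 CPM in members (median 157) and 7.87 to 47.2 CPM in others (median 16.6), with a log2 fold change of 2.83 ± 0.23 (edgeR adjusted p = 7.1e-06). The matrix genes Adamtsl1 (3.87) and Fbln7 (3.21) were higher. Fbln7 was detected in 21.9% of members and 28.2% of fibroblasts, and Adamtsl1 in 38.7% and 9.76%. Lower were Aspn, a proteoglycan that binds TGF-beta (-2.29), Ndnf, a secreted fibronectin-like protein (-2.38), Itih4 of the inter-alpha-trypsin inhibitor family (-1.93) and the retinol carrier gene Rbp4 (-1.91).

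Members kept the smooth muscle programme at somewhat lower levels. Of 21 tested VSMC identity and contractile genes, 12 were lower and 2 higher, with a median log2 fold change of -0.32. Acta2, smooth muscle actin, ranged from 8089 to 31878 CPM in members (median 21046) and from 16955 to 41633 CPM in others (median 27655), lower in 11 of 11 libraries, with a log2 fold change of -0.58 ± 0.10 (edgeR adjusted p = 0.00185). Tagln (-0.67), Synpo2 (-0.56), Tpm2 (-0.54) and Flna (-0.47) were similar, and the intermediate filament gene Des was the lowest, from a mean of 471 ± 172 CPM in others to 155 ± 117 CPM in members (-1.68). With the size factors of DESeq2, 10 of the 21 were lower and 3 higher. The integrin gene Itga8 (0.22) and the long noncoding RNA Carmn (0.35) were higher. Myh11, which the rule used, was at a mean of 2569 CPM in members and 3101 CPM in others.

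Tnnt2 and Corin, genes of heart muscle cells, were nearly absent from members. Tnnt2 was at 0 to 24.7 CPM (median 0) in members and at 47.2 to 345 CPM (median 150) in others, without overlap, with a log2 fold change of -6.36 ± 0.28 (edgeR adjusted p = 9.39e-17). Corin, the protease that activates natriuretic peptides, had 1 UMI in all 375 members and 3.7 to 81.3 CPM in others (log2 fold change -6.01). Both fitted folds stand against libraries at 0 and are no bounds. The muscle phosphoglycerate mutase gene Pgam2 (-3.25) was also lower. Cardiac actin, Actc1, passed at -2.48 in the 11 libraries, but over all cells it was detected in 0.8% of members and 0.851% of other VSMCs. Over 10 heart muscle markers, of which 3 could be tested, the summed level was 0 to 72 CPM in members and 118 to 395 CPM in others, lower in 11 of 11 libraries. This sum largely repeats Tnnt2, as the median in others was 160 CPM for the list and 150 CPM for Tnnt2 alone. The defining genes Myh6 and Tnni3 did not follow it, at 1.26 and 1.0 CPM in members (5 and 4 UMIs) and 1.13 and 0.606 CPM in others.

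Rgs5, which dampens G-protein signals and is a usual mark of pericytes, ranged from 371 to 4602 CPM in members (median 2456) and from 142 to 521 CPM in others (median 340), higher in 11 of 11 libraries, with a log2 fold change of 2.92 ± 0.22 (edgeR adjusted p = 4.75e-06). Of the 8 tested pericyte markers only Rgs5 and Kcnj8 (1.25) passed, both higher, with a median log2 fold change of 0.19 over the 8. The summed level of the list was 792 to 4759 CPM in members and 435 to 888 CPM in others. Rgs5 made up much of this sum, as the median in members was 3818 CPM for the list and 2456 CPM for Rgs5 alone. The sum is therefore no separate support.

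Other cell types were checked in the same way. The fibroblast list of 12 genes was at 2566 to 5123 CPM in members and 2148 to 3696 CPM in others, with Pi16 (2.08) and Mfap5 higher and none lower, while of the fibroblast marks Pdgfra was at 9.04 against 4.64 CPM and Lum at 71.3 against 86.1 CPM over all cells. The endothelial list had a median of 309 CPM over libraries in members and 163 CPM in others, with Pecam1 higher (0.94) and Cdh5 at 1.26 against 0.666 CPM. No tested leukocyte (9 genes), Schwann (2), neuron (1), cycling (3), cartilage (3) or melanocyte (1) gene passed, but 2 of 7 leukocyte genes were higher with others matched by UMI total and 1 of 9 within 60 min libraries. The median log2 fold change of the 9 leukocyte genes was 1.26, and their sum ranged from 21.6 to 2919 CPM in members and from 19.2 to 624 CPM in others. The part of these cell types in the differences above was not tested. With cells holding UMIs of 2 or more endothelial, leukocyte or Schwann markers left out, 852 genes passed in 8 libraries. Fibroblast markers were not used to leave cells out.

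Of 9 tested Notch pathway genes, the target genes Heyl and Hey2 were lower and none higher (median log2 fold change -0.56). Heyl ranged from 0 to 87 CPM in members (median 25.1) and from 32.3 to 143 CPM in others (median 73.7), lower in 11 of 11 libraries, with a log2 fold change of -1.28 ± 0.15 (edgeR adjusted p = 9.26e-11). Of 33 TGF-beta and BMP pathway genes, 5 were lower and 1 higher, with a median of -0.05, where 7.59% of all genes tested were lower and 3.34% higher. The lower genes included Cyr61 (-0.91), Tgfb2 (-0.75), the inhibitory Smad7 (-0.33) and the feedback inhibitor Pmepa1 (-0.24), and the activin subunit gene Inhba (0.48) was higher. Smad3 was at means of 7.02 and 9.04 CPM and did not pass (edgeR adjusted p = 0.939).

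Channel genes went both ways, with 5 higher and 5 lower of 20 tested and a median of 0.30 (5 higher and 2 lower with the size factors of DESeq2). The mechanosensitive channels Piezo2 (2.25) and Piezo1 (1.25), Kcnj8, which encodes a subunit of an ATP-sensitive potassium channel, the chloride channel gene Ano1 (0.93) and the calcium channel gene Cacna1d (0.90) were higher. The lower genes included the potassium channel genes Kcna5 (-1.81) and Kcnab1 (-1.47), Cacnb2 (-0.76) and Itpr1 (-0.44). Of 28 tested genes that respond early to stimuli, such as cell dissociation, Ier2 (-0.77), Egr1 (-0.73) and Fosl2 (-0.71) were lower. None was higher, and the median was -0.31. Over all genes tested, 7.59% were lower. A count of 3 among 28 is near that share and is not read as a trait of the members.

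The remaining genes named by rule were higher or lower in at least 9 of the 11 libraries. Gng2, a G-protein subunit (3.66), Eps8, a regulator of actin filaments (3.13), the zinc finger homeobox gene Tshz2 (2.90) and the calmodulin-like Calml4 (2.69) were higher. In fibroblasts a UMI of Tshz2 was found in 47.4% and of Calml4 in 22.5%, against 35.7% and 11.2% of members. Eps8 stood at 24.8% of fibroblasts and 26.1% of members, and Gng2 at 5.9% and 22.4%. The guanine nucleotide exchange factor gene Psd (-2.84), Bex4 (-2.45), the connexin gene Gja4 (-1.94) and the mitochondrial Chchd10 (-1.93) were lower. Of all 1259 genes that differed, 402 moved the same way in all 11 libraries.

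The 4 libraries whose GFP went against the label did not carry these differences alone. Without them, 728 genes passed in the remaining 7 libraries, 302 higher and 426 lower. Within the libraries of 60 min digestion 1088 passed, within the 3 libraries of 30 min 117, and within 18 weeks alone 652. Of the 67 genes named by rule and reported here, 66 had the same direction in every alternative in which they could be tested, Maob being the exception. These genes were named because they passed in the same cells, so a kept direction is little added support. The call was lost for 22 of 44 in 30 min libraries, 10 of 63 within 18 weeks and 22 of 67 with no library block. With cells over 20000 UMIs left out it was lost for 0 of 65. With other VSMCs matched 1 to 1 to members by UMI total, 435 genes passed, 222 higher and 213 lower.

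The members were then set against the VSMC types that the study had placed along the vessel. Of the other VSMCs, 6065 held Ptprz1 or Tes, genes it used for the more distal cells, and 1700 held Notch3 or Enpep, genes it used for the proximal cells near the root. Both comparisons use the same members. Against VSMCs with Ptprz1 or Tes, 1093 of 11124 genes differed (9.83%), 371 higher (3.34%) and 722 lower (6.49%). Against VSMCs with Notch3 or Enpep, 1040 of 9431 differed (11%), 429 higher (4.55%) and 611 lower (6.48%).

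Dlx5, Msx2, Prrx2, Lamc3, Sfrp2 and Rgs5 were higher against both, with log2 fold changes of 4.16 and 4.76, 4.83 and 5.49, 3.15 and 3.94, 2.86 and 3.62, 2.48 and 3.31, and 3.19 and 3.06. Tnnt2 (-6.08 and -5.83), Wnt16 (-2.38 and -1.87) and Heyl (-1.18 and -1.42) were lower against both. Other genes depended on the comparison. The connexin gene Gja4 was lower against VSMCs with Notch3 or Enpep (-3.20, edgeR adjusted p = 1.37e-11), and against VSMCs with Ptprz1 or Tes it stood at -0.50 (edgeR adjusted p = 0.484). Pgam2 was at -4.40 (edgeR adjusted p = 5.87e-06) and -1.77 (edgeR adjusted p = 0.129), Bdnf at 1.19 (0.0013) and 0.60 (0.135), and Egr1 at -1.06 (0.00836) and -0.36 (0.426), in the same order and with edgeR adjusted p in brackets for the latter 2. The difference between the 2 comparisons was not tested.

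Of the genes that mark these types, 1 of each type was lower in members, Enpep not in every alternative. Over all other VSMCs, Ptprz1 was lower in members, from a mean of 164 ± 96.1 to 110 ± 66.3 CPM (log2 fold change -0.61, edgeR adjusted p = 0.000786), and Enpep was lower, from 22.2 ± 15.1 to 7.26 ± 9.57 CPM (-1.22, edgeR adjusted p = 0.0133). Without the 4 libraries against the tracer label Enpep was at -1.01 and did not pass (edgeR adjusted p = 0.209). It was also lower without passing in further alternatives, with edgeR adjusted p in brackets. These were 18 weeks alone (0.173), 30 min libraries (0.132), cells of other-type markers left out (0.0778) and at least 20 members per library (0.0586). No library block (0.318) and leaving out Smad3SmKO replicate 2 at 10 weeks (0.0537) gave the same. Tes (0.37), Notch3 (-0.22) and Mgp (0.04) did not pass. Within 60 min libraries, 1 of the 2 distal genes passed as higher and 1 as lower. Of 8 tested Notch pathway genes, 5 were lower against VSMCs with Notch3 or Enpep (median -1.25) and 2 of 7 against VSMCs with Ptprz1 or Tes (median -0.19). Notch3, itself a Notch receptor gene, helped to choose the former cells. The count of 5 is therefore not independent of that choice and is a description only. Without the 4 libraries that went against the tracer label, 680 and 621 genes passed in the 2 comparisons.

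**Figure D4:**
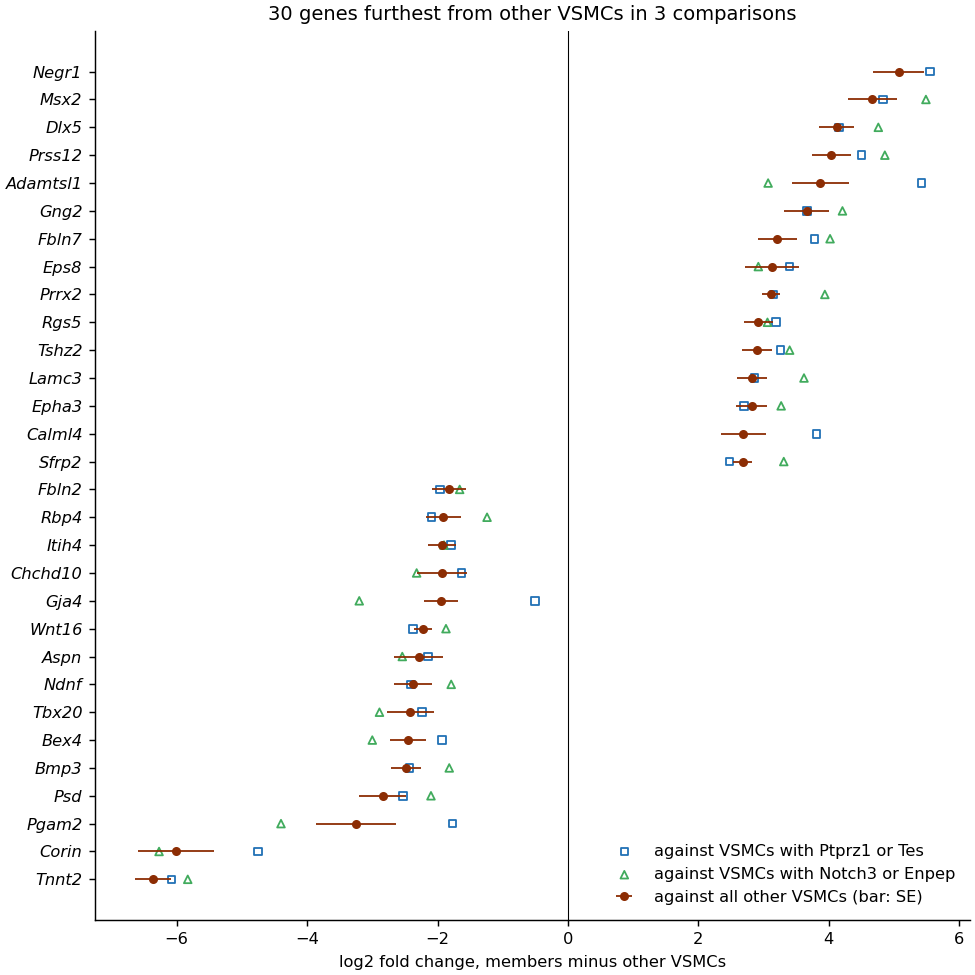
Log2 fold change (horizontal axis, members minus other VSMCs) of the 15 highest and 15 lowest named genes against all other VSMCs (filled points, bars: SE), against VSMCs with Ptprz1 or Tes (squares) and against VSMCs with Notch3 or Enpep (triangles). Negr1 and Calml4 were too sparse to test against VSMCs with Notch3 or Enpep, and Gja4 differs most between the 2 types, at -0.50 and -3.20.

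The share of members among VSMCs varied widely between mice. It ranged from 0.587% to 30.5% over the 16 libraries, with a median of 4.16%. At 18 weeks the 5 Smad3+/+ libraries were at 2.73%, 3.01%, 3.09%, 6.95% and 12.5%. The 7 libraries labelled Smad3SmKO were at 3.14%, 3.77%, 4.55%, 6.58%, 13.5%, 16.1% and 30.5%, so the groups overlapped and 3 of the 7 lay above every Smad3+/+ library. The highest share, 18 of 59 VSMCs in Smad3SmKO replicate 1, has an exact (Clopper-Pearson) 95% binomial interval of 19.2% to 43.9%, which covers counting error only.

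On average 11.2% ± 9.9 of VSMCs (SD, n = 7) were members in Smad3SmKO libraries and 5.66% ± 4.2 (n = 5) in Smad3+/+ libraries at 18 weeks. The difference of 5.5 percentage points did not pass (exact two-sided permutation test, p = 0.261, where 792 splits allow 0.00126 at the smallest). Permuted within batches, p was 0.194 (exact, 36 splits). Batch 1 had 3.09% against 3.14% and 16.1%, batch 2 had 12.5% against 30.5%, batch 3 had 6.95% against 4.55%, and batch 6 had 2.73% and 3.01% against 6.58%, each with Smad3+/+ first. Batch 5 held no Smad3+/+ library. The difference was 2.27 points without Smad3SmKO replicate 1. With all VSMCs thinned to 2000 UMIs the means were 2.26% and 0.979%, 1.28 points apart (exact permutation p = 0.687), and thinned to 5000 UMIs 8.31% and 2.41%, 5.91 points apart (exact permutation p = 0.162). Cells with at least 3 of the 6 genes made up 5.73% and 1.21% (exact permutation p = 0.0833). Without the libraries that went against the tracer label it was 3.64 points (exact permutation p = 0.583).

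At 10 weeks the 2 Smad3+/+ libraries were far apart, with 104 of 1587 VSMCs (6.55%) and 5 of 852 (0.587%). The libraries labelled Smad3SmKO, both of which went against the tracer label, had 25 of 1706 (1.47%) and 22 of 1013 (2.17%), between the Smad3+/+ values. The means differed by -1.75 points (exact permutation p = 1, where 2 against 2 allows 0.333 at the smallest), and by 1.23 points without Smad3+/+ replicate 1. At 18 weeks the libraries digested for 60 min had 5.91% ± 4.49 members (n = 5) and those digested for 30 min 11% ± 9.93 (n = 7), with an exact two-sided permutation p of 0.331. The difference of -5.07 points became -1.81 points without Smad3SmKO replicate 1. At 18 weeks the digestion times shared no batch, and the tracer label changed with them. Digestion time therefore cannot be told apart from batch or tracer label here.

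**Figure D5:**
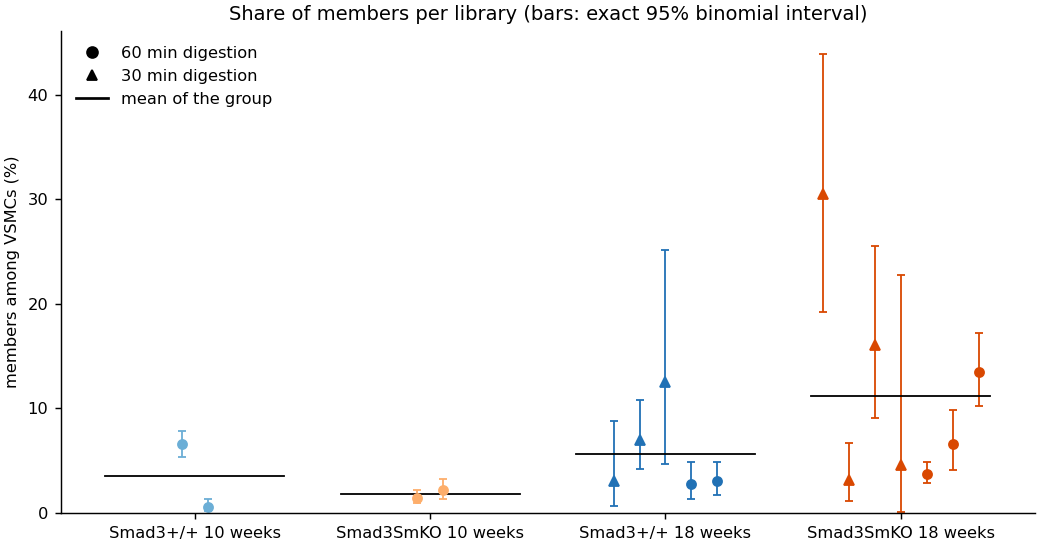
Percent of VSMCs that were members (vertical axis) in each of the 16 libraries by genotype label and weeks after deletion, with exact 95% binomial intervals as bars, digestion time by symbol and group means as lines. The Smad3SmKO libraries at 18 weeks spread from 3.14% to 30.5% and overlap the Smad3+/+ libraries at 2.73% to 12.5%.

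Whether members responded to the genotype label was tested in the sums of 11 libraries, with batch as a term and the genotype effect fitted for each time. At 18 weeks 7 of 4679 genes passed (0.15%), 6 higher (0.128%) and 1 lower (0.0214%) in the Smad3SmKO libraries. The unadjusted p was under 0.05 for 308. With batch in the fit this contrast had 3 residual degrees of freedom and rested on batch 6, in which Smad3+/+ replicates 4 and 5, both against the tracer label, stood beside Smad3SmKO replicate 6. It could not be fitted without that replicate, nor without the libraries against the label. Without a batch term 2 genes passed, both lower, and none of the 7 was among them. Leaving out other libraries gave 5 (without Smad3+/+ replicate 1 of 10 weeks) to 34 genes (without Smad3SmKO replicate 5), with 25 without its replicate 7 and 14 without Smad3+/+ replicate 4.

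Of the 7 genes, 4 belong to MHC class II antigen presentation: H2-Eb1 (10.68), H2-Aa (6.23), H2-Ab1 (5.36) and Cd74 (6.58 on the log2 scale). H2-Eb1 in members was at 0, 0 and 4.53 CPM in Smad3+/+ libraries and at 0, 0, 4.77, 9.45 and 592 CPM in those labelled Smad3SmKO, so 1 library stood apart. In that library, replicate 6, 1 of 21 members held 144 of 148 H2-Eb1 UMIs, all 107 of H2-Aa, 57 of 59 of H2-Ab1 and 438 of 461 of Cd74. The fitted folds stand against libraries at 0 and are no bounds.

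The other calls rest on the same 1 library of batch 6 against 2 and are given as values. The metallothionein gene Mt1 had a fitted log2 fold change of 1.87 (edgeR adjusted p = 0.0153, 0.987 without the batch term), at 842, 1705 and 1716 CPM in Smad3+/+ members and 638, 683, 1595, 4929 and 6871 CPM in members labelled Smad3SmKO. The groups overlap, and 2 of the latter lay below every Smad3+/+ library. The zinc finger gene Zbtb16 was at 2.86 (edgeR adjusted p = 0.0396, 0.875 without the batch term), with 8.86, 18.1 and 29 CPM against 27.7, 34.6, 62.8, 116 and 140 CPM, and only the lowest of the latter fell below the highest of the former. Heyl was at -7.61 (edgeR adjusted p = 0.0396, 0.866 without the batch term), with 18.1, 48.7 and 87 CPM against 0, 12.9, 20, 25.1 and 29.9 CPM. Its 0 was in replicate 6, the library on which the contrast rests, so the fitted fold is no bound. In other VSMCs Heyl was at 106, 138 and 143 CPM against 32.3 to 65.5 CPM, without overlap.

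Pmepa1, a TGF-beta target and feedback inhibitor, was at 874, 1276 and 1449 CPM in Smad3+/+ members and at 458, 590, 694, 760 and 796 CPM in members labelled Smad3SmKO at 18 weeks. The groups did not overlap, as for 84 of the 4679 genes (1.8%) with every Smad3SmKO library below every Smad3+/+ library, and 81 (1.73%) had every one above. The log2 fold change of -0.94 ± 0.32 did not pass (edgeR adjusted p = 0.438). Bdnf (0.75, edgeR adjusted p = 0.749) and Thbs1 (-0.10, edgeR adjusted p = 0.992) did not pass either. At 10 weeks, with 1 Smad3+/+ and 2 Smad3SmKO libraries, no gene passed (edgeR), 165 had an unadjusted p under 0.05, and DESeq2 also called 0.

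The genotype difference in members was also compared with that in the other VSMCs of the same libraries. At 18 weeks the difference itself passed for 39 of 11525 genes (0.338%), 7 higher (0.0607%) and 32 lower (0.278%) in members, relative to the other VSMCs. Without the libraries against the tracer label 45 passed, and DESeq2 called 2. For Pmepa1 the effects differed by 0.00 ± 0.14 and for Heyl by 0.14 ± 0.37 on the log2 scale, and neither passed (edgeR adjusted p = 1 for both). Pmepa1 in other VSMCs was at 1118, 1458 and 1508 CPM in Smad3+/+ libraries and at 440 to 908 CPM in those labelled Smad3SmKO, also without overlap.

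Igfbp4, which encodes a binding protein of insulin-like growth factors, was among the 39 and had a difference of -1.25 ± 0.22 (edgeR adjusted p = 8.4e-05). It was at 145, 155 and 312 CPM in Smad3+/+ members and at 31.4, 45.3, 73.5, 76 and 77.2 CPM in members labelled Smad3SmKO, without overlap. In other VSMCs it was at 257, 350 and 379 against 209, 218, 244, 297 and 307 CPM, which overlap. In Smad3+/+ replicates 2, 4 and 5, 45 of 69, 11 of 25 and 18 of 35 of its UMIs in members came from 1 cell each. Without replicate 2 the difference was -0.97 (edgeR adjusted p = 0.0894), in 60 min libraries -0.87 (edgeR adjusted p = 0.152), and without cells holding 2 or more endothelial, leukocyte or Schwann markers -0.14 (edgeR adjusted p = 1). DESeq2 gave -1.33 (adjusted p = 0.257). The tubulin gene Tuba1a had a difference of -1.0 ± 0.19 (edgeR adjusted p = 0.000365). It was at 328, 340 and 557 CPM against 62.8, 168, 176, 188 and 421 CPM in members, with Smad3SmKO replicate 3 inside the range of Smad3+/+. Its difference was -0.68 without Smad3+/+ replicate 4 (edgeR adjusted p = 0.182), and DESeq2 gave -1.09, which did not pass. Without the libraries against the tracer label it was -0.46, and without cells holding 2 or more endothelial, leukocyte or Schwann markers -0.36.

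Phlda1 (-1.58, edgeR adjusted p = 0.000365) was also lower by this measure. In 60 min libraries Phlda1 was at -1.20 (edgeR adjusted p = 0.201), and without Smad3+/+ replicate 2 at -1.07 (edgeR adjusted p = 0.399). DESeq2 gave -1.56 for it (adjusted p = 0.395). Dcn, which the rule used and which is counted among the 39, was at -1.51 as a description. Other large values came from few cells. Ndufa4l2 (-7.62) had 258 CPM in Smad3+/+ replicate 2, where 1 member held 41 of 57 UMIs, and 0 in the other 2 Smad3+/+ libraries. Colec11 (-9.83) had all 21 UMIs of that library in 1 cell, and Tnfsf9 (-2.93) had 29 of 30 UMIs of replicate 5 in 1 cell. Hopx (-9.86) had 4, 1 and 5 UMIs, each from 1 cell of a Smad3+/+ library. With cells that held 2 or more endothelial, leukocyte or Schwann markers left out, 9 genes passed in 8 libraries.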

How the data were processed

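The authors aligned the reads of 16 droplet libraries to mm10 with the GFP sequence added and deposited raw UMI counts per gene and barcode. Their notes name Cell Ranger 6 and the file headers 4.0.0. Neither the reads nor any values normalized by the authors were used here.

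Kept cells had between 600 and 6000 genes, between 2000 and 50000 UMIs (limits not included) and mitochondrial UMIs below 25%, the limits the study's methods give. No doublet caller was run, and alternatives left out cells over 20000 UMIs or with 2 or more endothelial, leukocyte or Schwann markers. UMIs were summed per library and class where both had at least 10 cells. Genes with at least 100 UMIs over all sums and a UMI in at least 50% of the libraries were tested with edgeR 4.0.16 (R 4.3.3, quasi-likelihood, TMM). DESeq2 1.42.0 was an alternative. The summing and other steps ran in Python 3.11.15. CPM is UMIs per 1e+06 UMIs of a sum. The fit was first tested on simulated counts with known changes.

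Genes named in the text were the 6 selecting genes, the 15 highest and 15 lowest by log2 fold change among those that passed, moved the same way in at least 80% of libraries and reached 20 CPM, up to 4 per list by absolute change, and up to 10 per genotype comparison. Further members of a list are named where its count is given, and were chosen after their values were seen. The members, the 24 lists and the tests were chosen with earlier results of these data known. Each library came from 1 mouse, and the mouse was the replicate. Gene positions are from GENCODE vM21 (GRCm38). Shares were compared with exact permutation tests over libraries. The study's methods compare clusters by a rank test over cells, which are not replicates, so sums per library were used instead. Alternatives changed the tool, scaling, filter, rule, depth, digestion, time and libraries. Some genes that the rule names are not reported here.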

Additional observations from a re-analysis of the deposited data

Results flagged for a closer look

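In members of the 18-week libraries labelled Smad3SmKO, the highest library stood far from the other 4 for 5 genes. These were Cd74 at 1843 CPM, H2-Eb1 at 592 CPM, H2-Aa at 428 CPM and H2-Ab1 at 236 CPM, all in replicate 6 and nearly all from 1 cell, and Ndufa4l2 at 4 CPM beside 4 libraries at 0. The 4 CPM of Ndufa4l2 was 1 UMI. Of 20 groups examined, 5 were set apart in this way. These 5 genes were examined because a genotype fit had called them, and they are not independent, so the count was not set against chance.

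The genotype difference at 18 weeks differed between members and other VSMCs by the test of the difference itself for Ndufa4l2 (-7.62), Igfbp4 (-1.25), Phlda1 (-1.58), Tnfsf9 (-2.93), Tuba1a (-1.0), Hopx (-9.86) and Colec11 (-9.83), all on the log2 scale and lower in members. Each of these calls was lost in some of the alternatives. Dcn, which the rule used to choose VSMCs, stood at -1.51 as a description.

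GFP, the tracer, was counted 246 and 165 times in kept cells of the Smad3SmKO libraries replicates 1 and 2 at 10 weeks, both labelled as lacking the tracer.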

How the results depend on the processing

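Both classes of a comparison came from the same mouse, so the library was the pairing. With no replicate block 302 genes passed between members and other VSMCs instead of 1259 (173 higher, 129 lower). Replicate numbers were given in accession order and paired nothing across genotypes. DESeq2 called 766 (383 in each direction), edgeR with DESeq2 size factors 952, at least 3 of the 6 genes 676 in 4 libraries, matched depth 435, thinning to 5000 UMIs 642, leaving out libraries against the tracer label 728, 30 min libraries 117 and 18 weeks alone 652. Leaving out 1 library gave 977 to 1257. Against VSMCs with Ptprz1 or Tes DESeq2 called 692, 680 passed without libraries against the label, and 824 to 1103 when 1 library was left out. Against VSMCs with Notch3 or Enpep these were 621 and 774 to 1003. By genotype at 18 weeks, 4 passed in DESeq2, 18 with no filter, 2 with no batch term and 5 to 34 with 1 library left out. At 10 weeks 3 passed with no filter and 0 to 0 with 1 library left out. The difference between classes gave 2 in DESeq2, 13 with edgeR's own filter, 9 without cells of other-type markers and 27 to 47 with 1 library left out.

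Signs reversed for Maob (0.37 at 30 min), Ndufa4l2 (3.14 at 60 min, -11.49 to 1.88 with 1 library left out, 1.88 without Smad3+/+ replicate 2), Tnfsf9 (0.23 without libraries against the label, -3.61 to 0.14 with 1 left out, 0.14 without Smad3+/+ replicate 5) and the share at 10 weeks (1.23). The cause was not tested. Shares moved from 2.27 to 7.21 points (genotype, 18 weeks), -4.73 to 1.23 (10 weeks) and -6.95 to -1.81 (digestion) when 1 library was left out. Not run were the 18-week genotype fit without Smad3SmKO replicate 6, without libraries against the label, in 30 min libraries and without cells of other-type markers, and the 10-week fit without Smad3+/+ replicate 1, which could not be fitted. Alternatives with Slc22a3 left out of the rule (1221 genes, 8 libraries), members lacking Nrn1 (1150), and those for libraries against the label or cells of other-type markers outside the main comparison were chosen after seeing the data.

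The fitted libraries held 11 to 104 members each, which limits the precision of genes with few UMIs.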

Other observations

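Further genes, chosen after their values were seen, separated members from other VSMCs. The BMP antagonist gene Chrdl1 was at 13.6 to 49.6 CPM in members and 3.88 to 13 CPM in others, and the endocytic adaptor gene Sgip1 at 7.87 to 38.3 against 0.4 to 4.45 CPM, both without overlap over 11 libraries (0.13% of genes have none). Their log2 fold changes were 2.07 and 2.99 (edgeR adjusted p = 1.58e-14 and 8.58e-14). The kinase gene Mast4 was lower without overlap, at 39.9 to 77.3 against 95.3 to 165 CPM (-1.06).

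The Wnt antagonist gene Frzb (2.01), the BMP family member Gdf10 (2.33), the calcitonin receptor-like gene Calcrl (2.64) and the zinc finger gene Osr1 (1.12) were higher in members, in 11, 10, 11 and 11 of 11 libraries. Ifit1 (1.77, edgeR adjusted p = 0.114) and Isg15 (1.35, edgeR adjusted p = 0.0578) did not pass.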
